A study of Schmidtea mediterranea with 89 samples.

Results

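The transcripts described here are 200 identifiers that were abundant in freshly isolated planarian stem cells and whose level moved little during the first days in a dish. Neoblasts, the stem cells of the planarian Schmidtea mediterranea, divide throughout adult life. They are the source of every differentiated cell type of the animal and carry out its regeneration, and outside the animal they have been hard to keep alive and dividing. Cells named SiRNeoblasts are neoblasts sorted by a fluorescent dye that stains nuclear DNA. The deposited tables give each transcript only as an identifier that starts with SMED3, with no gene name or product, and 0 identifiers could be paired with a name. So neither the roles of the 200 members nor the neoblast markers of the libraries could be checked here, and the members are described as deposited.

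The members were chosen by measured values. Depth-scaled counts (CPM) were computed in each library after leaving out SMED30032887, SMED30027385, SMED30027845 and SMED30026765, the 4 most abundant identifiers. A member had to differ from uncultured cells by less than 0.5 on the log2(CPM + 1) scale after both 1 and 3 days of flat culture in experiment 3, and by less than 0.5 between AggreWell and flat plates in experiment 2. Of the 36031 identifiers ranked, 10202 met these limits, and the 200 with the highest mean over the uncultured groups of experiments 3, 4 and 5 were kept, of 36035 identifiers in all. Steadiness in those 3 contrasts is therefore a property of the choice and not a finding, and the uncultured cells of experiments 4 and 5 entered only through the ranking.

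All cells were wild-type SiRNeoblasts, and all cultures were kept at 22 °C in a medium with 20% serum. The 89 libraries belong to 5 experiments with 30 groups, each of 3 libraries except the gel at 3 days with 2. Experiment 1 set cells in aggregates against cells outside aggregates at 2 days, and experiment 2 set AggreWell microwell plates against flat plates at 1 day. Experiment 3 had a soft polyacrylamide (PA) gel of 100 Pa and flat plates at 1, 2 and 3 days, U-bottom plates at 1 and 3 days, and uncultured cells. Experiment 4 had feeders of human foreskin fibroblasts (the HFF1 line), feeders of mouse embryonic fibroblasts (MEF) and flat plates at 1 and 3 days, and uncultured cells. Experiment 5 had U-bottom plates with planarian tissue extract, U-bottom plates without it and flat plates without it at 1, 3 and 7 days, and uncultured cells. Whether replicate libraries were made from different cultures or animals is not in the labels, so each p-value measures only how far these libraries differ, and that spread may be technical.

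Total counts ran from 3333661 to 42691160 per library, and the 4 most abundant identifiers took between 27.0% and 84.6% of them. Experiments 1 to 3 hold estimated counts and experiments 4 and 5 hold whole counts, and no value was tested across tables. In experiment 4 the scaling factors that make libraries comparable (TMM, trimmed mean of M values) spread from 0.607 to 2.29, against 0.822 to 1.16 in experiment 3. In these bulk libraries a lower share of a transcript cannot tell fewer cells of a type from less RNA per cell.

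The members lay in the upper part of the abundance ranking without reaching its top. CPM is not divided by transcript length, so orders of members by level are orders of counts. Their mean over the uncultured groups ran from 1999 CPM for SMED30026979 to 78.9 CPM for SMED30003138, with a median of 138 CPM. Of the 200 members, 20 were at 500 CPM or more and 49 under 100. They took ranks 41 to 2358 in abundance, and 8 of them were among the 100 most abundant identifiers. The next identifier that met the limits, SMED30034316, had 78.4 CPM and was left out. Most transcripts of that abundance did not meet the limits: the members are 8.48% of the 2358 identifiers at least as abundant as the last of them. The other 2158, at least as abundant as the last member and called the equally abundant non-members, serve as the description of what comparable transcripts did.

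The 5 most abundant members were at a high level in all 3 tables with uncultured cells. SMED30026979 averaged 1524 CPM in uncultured cells of experiment 3, 2153 in experiment 4 and 2319 in experiment 5. SMED30002703 averaged 2159, 1398 and 1565 CPM in the same order, and SMED30013606 averaged 2213, 1399 and 1235 CPM. SMED30011982 averaged 1547, 1665 and 1378 CPM, and SMED30000240 averaged 1627, 1393 and 1048 CPM. Their order by level thus changed from table to table.

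In the contrasts that chose them, the members were not centred on 0 in the same way. After 1 day of flat culture in experiment 3 the median log2 ratio was -0.07 and 121 of 200 members lay below 0, and after 3 days it was -0.10 with 122 below 0. In AggreWell against flat plates the median was -0.36 and 191 of 200 lay below 0, so the lower limit was the nearer one for most members there. By the choice itself all 200 members are within the limits in these contrasts, against 38.4%, 33.5% and 35.0% of all identifiers at 1 CPM or more. The members nearest to the limit were SMED30009634 at -0.499 for flat culture at 1 day, SMED30029759 at -0.498 for flat culture at 3 days and SMED30011577 at -0.499 for AggreWell. Just outside lay SMED30035328 at -0.505, SMED30006347 at -0.501 and SMED30006214 at -0.500 in the same contrasts. These values describe the choice and carry no test.

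A few members were abundant in one kind of table and almost missing in the other. SMED30009757 averaged 3727 CPM in uncultured cells of experiment 3, where its 26 libraries ran from 2396 to 8461 CPM with a median of 3915. In experiments 4 and 5 the same identifier did not exceed 1.73 and 0.789 CPM in any library. SMED30028679 had a median of 839 CPM over the libraries of experiment 3, against 2.09 in experiment 4 and 2.10 in experiment 5. SMED30005461 had 343, 0.823 and 0.0849 CPM in the same order. SMED30000306 was also lower in the later tables, with medians of 345, 32.6 and 110 CPM. These 4 were chosen after their values were seen. They are members because experiment 3 alone lifted their mean, and the ranking on experiment 3 alone shared 182 of the 200 members. The other members had similar levels: between experiments 5 and 3, 188 of 200 uncultured means lay within a factor of 2 (1 on the log2 scale), with a median difference of 0.04. In all, 194 members were above 0 in every one of the 89 libraries.

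**Figure D1:**
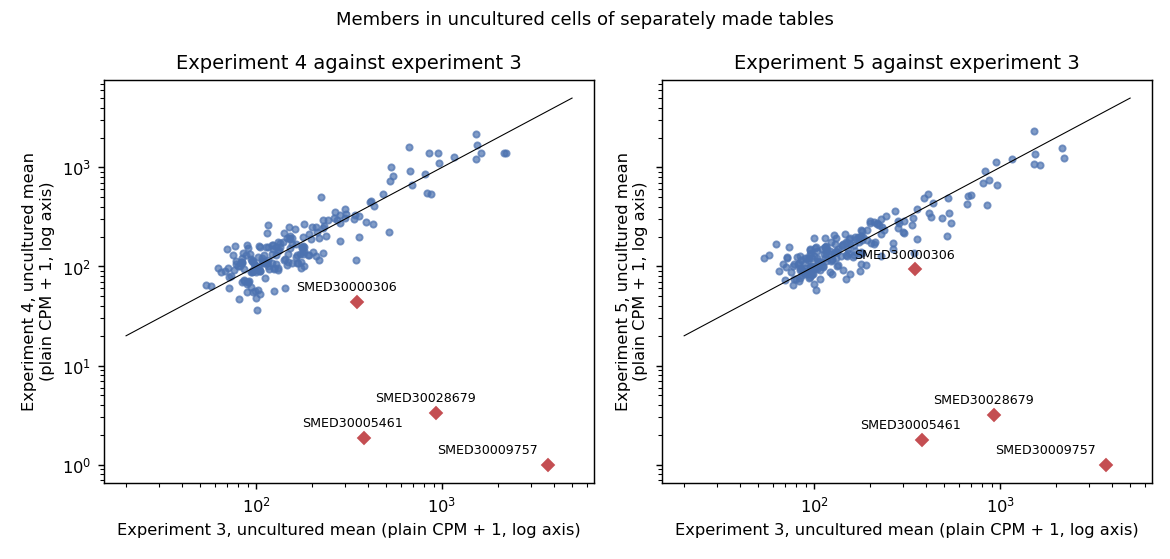
Mean level of each member in uncultured cells (plain CPM + 1, log axes): experiment 4 (left) and experiment 5 (right) on the vertical axis against experiment 3 on the horizontal axis, with the line of equal level. Most of the 200 points follow the line, while SMED30009757, SMED30028679 and SMED30005461 lie at the bottom near 1, and SMED30000306 lies below the line.

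The share of all counts that the 200 members took together stayed within narrow limits in most groups and was lowest after 7 days with extract. With the 4 most abundant identifiers left out, the share over all 89 libraries had a median of 5.04% and ran from 1.57% to 6.80%. In U-bottom plates with extract it was 4.08% ± 0.0309 at 1 day, 3.81% ± 0.137 at 3 days and 1.67% ± 0.155 at 7 days (SD, n = 3 each). In U-bottom plates without extract it was 5.43% ± 0.184, 5.46% ± 0.256 and 3.51% ± 0.678 on the same days. Flat plates had 4.93% ± 0.0838, 5.56% ± 0.434 and 4.51% ± 0.0887, against 4.47% ± 0.154 in uncultured cells. The 3 libraries with extract were below the 3 without it on each of the 3 days, with no overlap.

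At 7 days a few transcripts took a large part of the counts in the plates with extract. The 10 most abundant identifiers outside the 4 left out held 34.3% ± 1.12 of counts with extract and 20.0% ± 5.10 without it (SD, n = 3 each). The scaling factors moved with this, at 0.601 to 0.611 with extract and 0.764 to 0.989 without it. The part of these identifiers in the members' lower share was not tested, and the tests further on use TMM-scaled counts. Elsewhere the share was less uniform between libraries of a group: in experiment 1 the cells in aggregates had 1.94%, 5.34% and 4.11% in their 3 libraries.

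**Figure D2:**
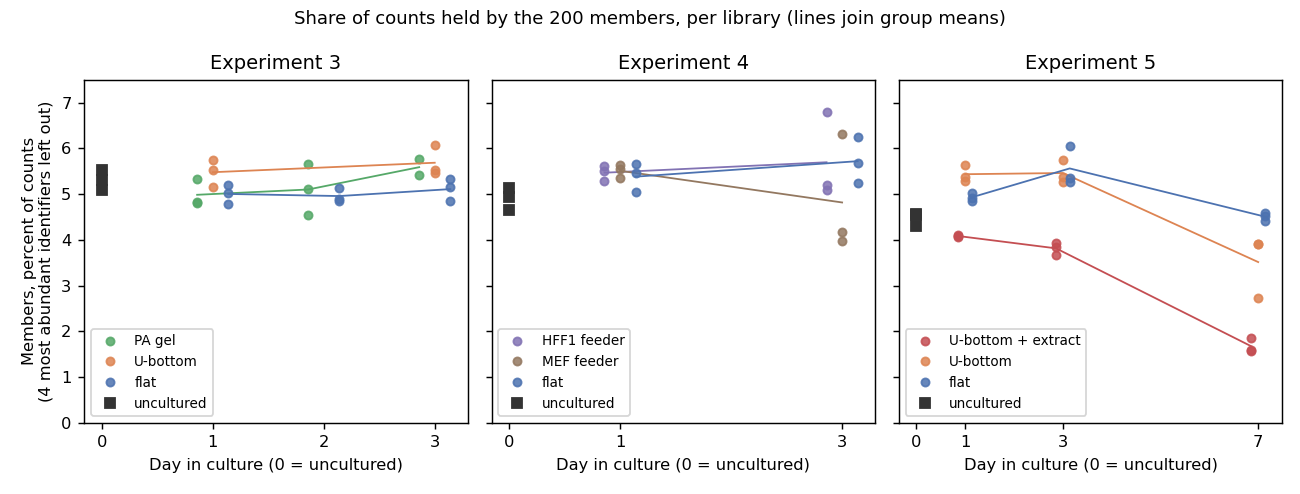
Share of counts held by the 200 members (percent, 4 most abundant identifiers left out) against day in culture, 1 point per library, lines joining group means, for experiments 3, 4 and 5. The libraries with extract at 7 days sit between 1.57% and 1.85%, under all libraries of experiments 3, 4 and 5 shown.

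In the groups the choice had used, all 200 members are within the limits by the choice itself. The other groups, which it had not used, are described next. The uncultured cells of experiments 4 and 5 did enter the ranking by level. On the plain scale, 164 of 200 members (82.0%) stayed within 0.5 of uncultured cells after 1 day of flat culture in experiment 5, 122 (61.0%) after 3 days and 127 (63.5%) after 7 days. The same share over all identifiers at 1 CPM or more was 45.2%, 36.5% and 28.0%, and over the equally abundant non-members it was 56.9%, 48.4% and 36.1%. The members were within the limits more often than either on each day, as a description of these sets with no test. In U-bottom plates without extract 72.5%, 66.0% and 48.5% stayed within the limits, against 46.3%, 37.7% and 23.6% of all identifiers. The equally abundant non-members had 60.8%, 54.0% and 29.0%. With extract the shares were 66.0%, 56.5% and 4.5%, against 31.3%, 29.7% and 11.7% of all identifiers. The non-members had 37.1% and 34.8% at 1 and 3 days with extract. At 7 days with extract 9 members were within the limits, and 177 of 200 were at least 2-fold below uncultured cells on this scale. The members' median log2 ratio there was -1.79, against -2.08 for the equally abundant non-members, of which 4.08% were within the limits and 86.6% at least 2-fold below. The fall was smaller on the TMM scale. The members' summed level on it was 27687 ± 2368 CPM at 7 days with extract, against 42406 ± 1788 CPM in uncultured cells (SD, n = 3 each). The part of the scaling in the 177 was not tested.

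These shares include 3 members whose uncultured cells had under 10 CPM in both experiments 4 and 5, namely SMED30009757, SMED30028679 and SMED30005461. Where both groups are near 0 the pseudocount draws a log2 ratio toward 0, and SMED30009757 was within the limits in every cultured group of experiment 5 at levels of 0 or near 0. Over the other 197 members, a choice made after the values were seen, the shares in flat plates of experiment 5 were 82.7%, 60.9% and 63.5% at 1, 3 and 7 days. In U-bottom plates without extract they were 72.6%, 66.5% and 48.2%, and with extract they were 66.5%, 56.3% and 4.06%, the last of them being 8 members.

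In experiment 4 the scatter was wider. In flat plates 44.0% of members stayed within the limits at 1 day and 52.5% at 3 days, against 24.3% and 27.5% of all identifiers. The equally abundant non-members had 32.0% and 35.6%. These shares are on the plain scale and depend on it. In the TMM fit 29.1% and 36.7% of members had a change under 0.5 in size in these flat plates. All identifiers had 15.2% and 17.6% there, and the non-members 30.7% and 35.8%, close to the members. On HFF1 feeders the shares were 37.5% and 44.0%, against 24.1% and 24.0% of all identifiers, and on MEF feeders they were 43.0% and 32.0%, against 24.6% and 18.8%. The non-members had 30.2% and 29.7% on HFF1, and 33.9% and 21.2% on MEF. Without the 3 members near 0 the shares were 43.7% and 51.8% in flat plates, 37.1% and 44.2% on HFF1 and 42.6% and 32.0% on MEF. In experiment 3, whose uncultured cells the choice had used, flat plates at 2 days kept 93.0% of members within the limits, against 33.5% of all identifiers. The non-members had 37.0% there. The PA gel kept 90.0%, 91.0% and 85.0% at 1, 2 and 3 days, against 43.3%, 40.3% and 37.4% of all identifiers. U-bottom plates kept 92.0% and 85.5% at 1 and 3 days, against 45.0% and 37.9%. The non-members had 44.3%, 45.8% and 40.5% on the gel, and 46.8% and 42.9% in U-bottom plates. Cells in aggregates kept 85.0% within the limits relative to cells outside aggregates, against 60.5% of all identifiers and 66.4% of the non-members.

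On the plain scale, few members stayed within the limits everywhere. In all 3 flat groups of experiment 5, 81 of 200 members (40.5%) did, against 19.9% of the equally abundant non-members. In the 5 flat groups of experiments 4 and 5 together, 27 members did (13.5%, against 6.77% of the non-members). Over the 197 members not near 0 these counts were 80 (40.6%) and 26 (13.2%). No member did in all 15 cultured groups of experiments 4 and 5, and 0 of the 2158 non-members did. The range of a member's log2 ratio over the 25 groups with a comparison group had a median of 2.67 and was under 2 for 21 members. Of these 21, 19 were among the 197, whose median range was 2.68. For 147 of 200 members the lowest of these groups was U-bottom with extract at 7 days. Ranges and lowest groups are not given for the non-members, so these counts do not set the members apart. In that group 88.5% of members and 86.6% of the non-members were at least 2-fold below uncultured cells on this scale.

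**Figure D3:**
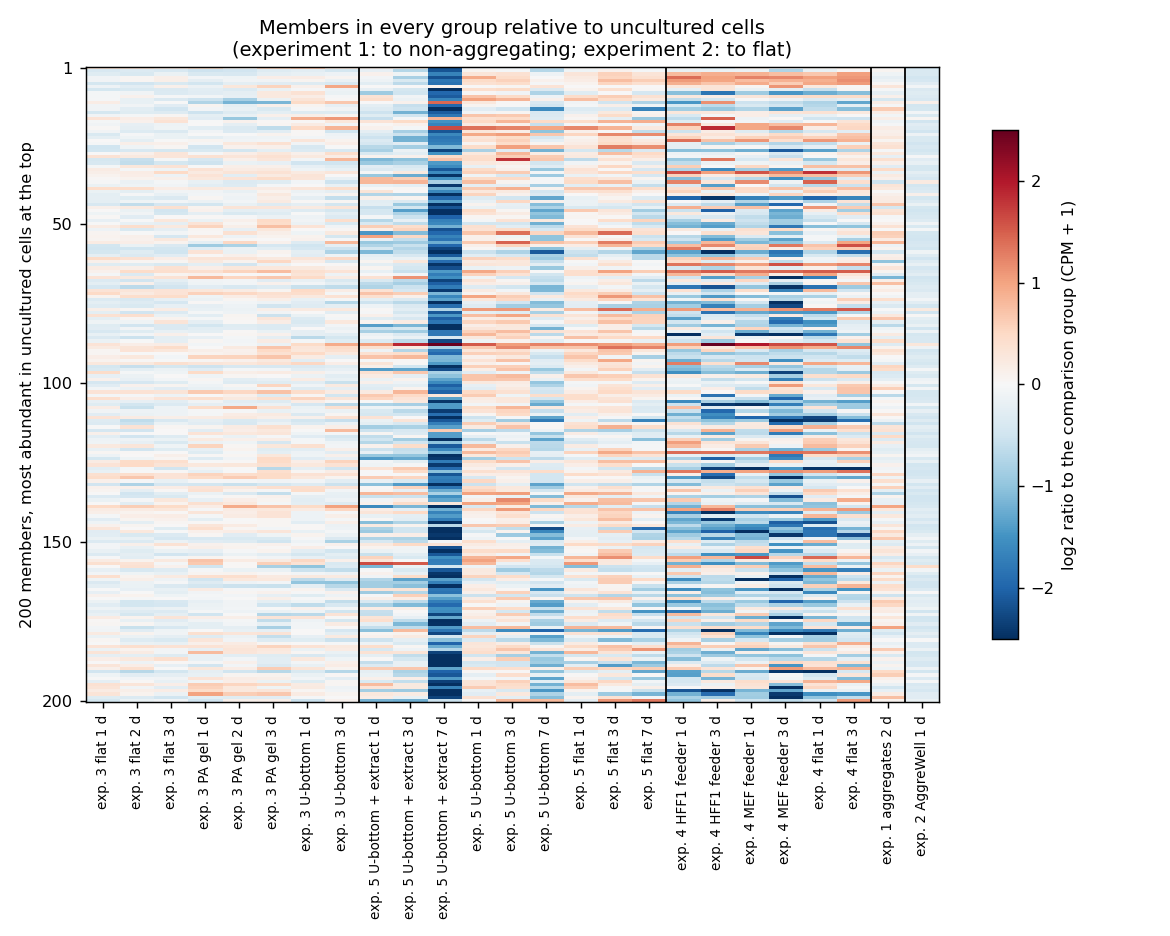
Log2 ratio of each of the 200 members (rows, most abundant at the top) in each of 25 groups (columns) to its comparison group, on the plain CPM + 1 scale: uncultured cells of the same experiment, cells outside aggregates in experiment 1 and flat plates in experiment 2. The column of U-bottom with extract at 7 days is blue in 177 rows by 1 or more, while the columns of experiment 3 are pale. The choice used the columns of flat plates at 1 and 3 days in experiment 3 and of AggreWell in experiment 2.

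At the 2 ends of this range were members that can be followed by eye. SMED30033139 had the smallest range, 1.22 on the log2 scale of plain CPM + 1, with a highest ratio of 0.638. This range does not carry over to the TMM scale, on which its rise at 7 days with extract was larger. On the TMM scale it had 447, 518 and 428 CPM at 7 days with extract and 439, 313 and 321 CPM without extract, against 161, 197 and 213 CPM in uncultured cells of experiment 5. All 6 late libraries were above all 3 uncultured ones. SMED30014279 had the largest range, 5.05. In plain CPM it had 2.80, 4.04 and 2.91 on MEF feeders at 3 days, against 142, 93.0 and 91.0 in uncultured cells of experiment 4. In flat plates of that experiment at 1 day its 3 libraries had 4.65, 35.2 and 147 CPM, a spread that covers the uncultured level.

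Flat culture against uncultured cells, the condition of experiment 3 that chose the members, was repeated in experiments 4 and 5. Experiment 5 is given first, and experiment 4, where fewer members stayed within the limits, further on. The choice had not used the flat libraries, but the uncultured libraries they are set against had entered the abundance ranking. In the quasi-likelihood F test of edgeR with Benjamini-Hochberg adjustment over all 24164 identifiers tested, 0 of 199 members tested differed from uncultured cells at 1 day, where 0.695% of all identifiers did. With p below 0.05 before adjustment there were 17 members, against 2589 of all 24164 identifiers. DESeq2 called 1 member, and 1 was called without replicate 1 of the uncultured cells. A fit of the 2 compared groups alone called 19. At 3 days 11 members rose and 1 fell (6.03% of members, against 3.77% of all identifiers and 15.8% of the equally abundant non-members). At 7 days 10 rose and 6 fell (8.04%, against 10.1% and 33.8%). The members' median log2 fold changes were 0.06, 0.24 and -0.01 on the 3 days, and over all identifiers they were -0.10, -0.15 and 0.02. SMED30009757, at or near 0 in this table, was not tested. The count at 3 days was 3 without replicate 2 of the flat plates, 6 without replicate 1 of them and 5 or 6 without any 1 uncultured library, and at 7 days it was 10 without replicate 2 of the flat plates. Other settings moved it both ways. RLE size factors gave 7 at 3 days. At 3 and 7 days DESeq2 called 20 and 32, and a fit of the 2 compared groups alone called 27 and 42. The newer edgeR fit, described further on, called 22 and 28.

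Some named members show what these changes look like. SMED30018984 had 261, 396 and 297 TMM-scaled CPM in flat plates at 3 days, against 108, 128 and 129 CPM in uncultured cells (log2 fold change 1.39, SE 0.28, adjusted p = 0.00139). All 3 flat libraries were above all 3 uncultured ones. SMED30003138, the least abundant member, had 175, 259 and 206 CPM at 7 days, against 52.9, 97.8 and 86.9 CPM in uncultured cells (log2 fold change 1.43, SE 0.32, adjusted p = 0.00189). SMED30006888 had 244, 240 and 268 CPM at 7 days, against 95.0, 108 and 97.7 CPM in uncultured cells (1.32, SE 0.33, adjusted p = 0.00639). For both, the groups did not overlap.

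In the other direction, SMED30004603 had 39.2, 38.2 and 45.6 CPM in flat plates at 7 days, against 101, 173 and 167 CPM in uncultured cells (log2 fold change -1.84, SE 0.47, adjusted p = 0.00699). SMED30003645 had 34.8, 19.6 and 22.1 CPM, against 87.9, 96.1 and 93.2 CPM in uncultured cells (-1.86, SE 0.47, adjusted p = 0.00696), and its adjusted p was 0.0552 without replicate 2 of the flat plates. The 1 member that fell at 3 days, SMED30023063, had 35.9, 28.5 and 65.1 CPM, against 109, 123 and 121 CPM in uncultured cells (-1.45, SE 0.35, adjusted p = 0.00998). Its adjusted p was 0.0759 without replicate 1 and 0.103 without replicate 2 of the flat plates. All 3 had been within 0.5 of uncultured cells in experiment 3, as the choice required.

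Between 7 days and 1 day of flat culture 6 of 199 members rose and 7 fell (6.53% called, against 6.51% of all identifiers and 14.8% of the equally abundant non-members). The split turned with the scaling, to 11 higher and 3 lower with RLE size factors and to 2 higher and 11 lower with plain totals. SMED30003138 had the highest change, at 175, 259 and 206 CPM at 7 days against 45.1, 67.6 and 80.1 CPM at 1 day (log2 fold change 1.73, SE 0.32, adjusted p = 0.000277). Its libraries did not overlap between the 2 days. The count was 4 without replicate 2 and 8 without replicate 3 of the plates at 7 days, and 5 or 6 without any 1 library at 1 day.

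No member was called between U-bottom and flat plates. In U-bottom against flat plates of experiment 5, 0 of 199 members were called at 1, 3 or 7 days, where 0%, 0.00828% and 0% of all identifiers were called. Without adjustment 4, 8 and 24 members had a p under 0.05, against 1444, 2816 and 1851 of all 24164 identifiers. DESeq2 called 0 members on each day. The members' median log2 fold changes were 0.08, -0.06 and -0.25, and 91.5%, 92.0% and 76.9% of members had a fitted change under 0.5 in size, against 47.5%, 42.4% and 35.4% of all identifiers and 89.2%, 83.4% and 75.3% of the equally abundant non-members. The median standard error of a member was 0.32 on each day, and changes of that size were not detectable with these libraries.

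Many members were lower in U-bottom plates with planarian tissue extract than in those without it. At 1 day 15 of 199 members fell (7.54%, against 0.679% of all identifiers and 5.43% of the equally abundant non-members) and 0 rose, where 1.14% of all identifiers did. At 3 days 50 fell (25.1%, against 1.95% and 14.0%) and 2 rose (1.01%, against 0.985% of all identifiers). At 7 days 70 fell (35.2%, against 5.37% and 27.5%) and 6 rose (3.02%, against 0.902%). The members' median log2 fold changes were -0.38, -0.62 and -0.84, against 0.09, 0.14 and 0.22 over all identifiers and -0.11, -0.21 and -0.62 over the non-members. The median of the members thus stood below that of transcripts of like abundance on each day, and at 7 days the 2 sets were closer.

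The 3-day comparison held with every scaling tried, while the 7-day count depended on it. At 7 days RLE size factors called 19 lower and 8 higher, plain totals called 144 lower and 3 higher, and a fit of the 2 compared groups alone called 10 lower and 2 higher. Shares called over other identifiers are not given under these settings, so these counts do not set the members apart. The median of all identifiers at 7 days moved with the scaling too, at 0.69 with RLE and -0.20 with plain totals, and the members' median was then -0.34 and -1.39. Under each of these scalings, and with TMM, the members' median was below that of all identifiers. The count called was 7 to 10 at 1 day without any 1 of the 6 libraries. At 3 days it was 31 to 33 without any 1 library with extract, and at 7 days it was 49 without replicate 2 of the plates without extract.

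**Figure D4:**
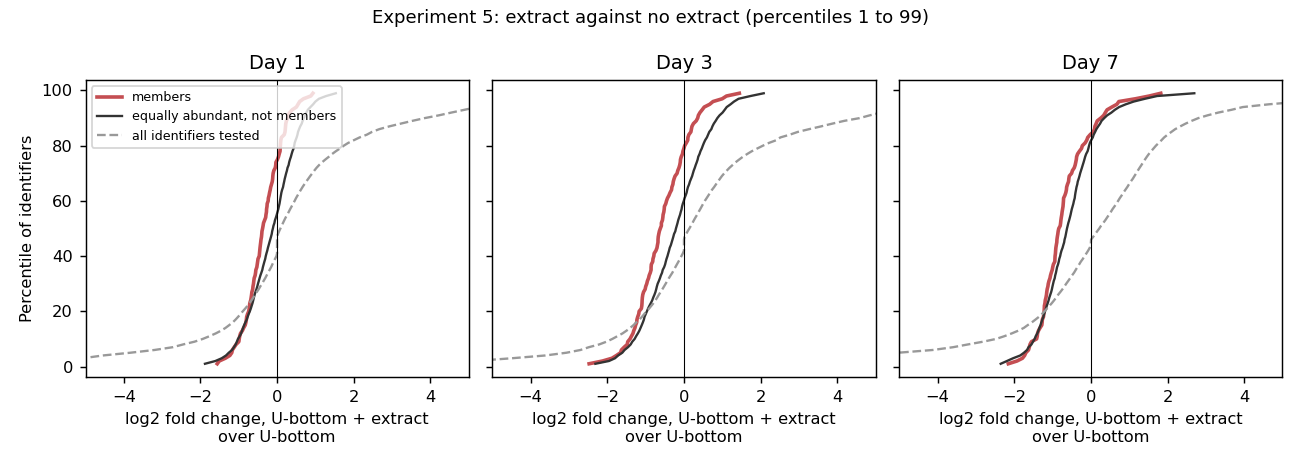
Log2 fold change of U-bottom plates with extract over U-bottom plates without it (horizontal axis) at each percentile from 1 to 99 (vertical axis) for the members, the equally abundant non-members and all identifiers tested, at 1, 3 and 7 days. The members' curve crosses the middle at -0.38, -0.62 and -0.84, to the left of both other curves.

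At 3 days most members that fell lay above uncultured cells without extract and below them with it. They were picked for a fall between these same libraries, which itself favours such positions. The counts are therefore a description with no test, and no share over other transcripts is given. Of the 50 members that fell, 45 were above the uncultured mean in plates without extract and all 50 were below it in plates with extract, on the TMM scale. At 1 day this held for 13 and 15 of the 15 members. At 7 days 33 of the 70 were above the uncultured mean without extract, and all 70 were below it with extract. The members that fell at 3 days had log2 fold changes between -2.59 and -0.77, with a median of -1.29.

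The members that fell were partly shared between days. Of the 15 that fell at 1 day, 14 also fell at 3 days, which is 93.3% of the 1-day list and 28.0% of the 3-day list. The 3-day and 7-day lists shared 34 members, 68.0% of the 3-day list and 48.6% of the 7-day list. In all, 87 of 199 members (43.7%) fell on at least 1 day, against 33.2% of the 2154 equally abundant non-members and 6.38% of all identifiers. On all 3 days 9 members fell (4.52%, against 3.34% and 0.36%). A fitted change below 0 on every day was seen for 118 members (59.3%, against 42.6% and 15.0%) and one above 0 on every day for 10 (5.03%, against 8.36% and 22.9%). Libraries of different days are separate samples. All groups of experiment 5 share 1 estimate of the spread, though, so the lists are not independent. For the overlaps between 2 days, shares over other identifiers are not given.

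SMED30010553 and SMED30004451 fell on all 3 days, and of the called members they had the lowest fold changes at 1 and at 3 days. SMED30010553 had 134, 84.5 and 70.9 CPM with extract at 1 day, against 464, 368 and 404 CPM without it (log2 fold change -2.09, SE 0.35, adjusted p = 0.00113). At 3 days it had 68.9, 115 and 153 CPM with extract, against 712, 622 and 690 CPM without it (-2.59, SE 0.36, adjusted p = 1.36e-05). The libraries without extract were all above the uncultured ones (226, 287 and 290 CPM) and those with extract were all below them. In flat plates at 3 days, also without extract, it had 634, 818 and 660 CPM and rose against uncultured cells (1.40, SE 0.35, adjusted p = 0.0132), a call lost without replicate 2 of the flat plates (adjusted p = 0.0682) and without any 1 uncultured library (0.0559 to 0.0803).

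SMED30004451 followed the same course. It had 140, 106 and 139 CPM with extract at 1 day, against 469, 316 and 345 CPM without it (log2 fold change -1.55, SE 0.27, adjusted p = 0.00175). At 3 days the values were 98.6, 106 and 159 CPM with extract, against 643, 674 and 699 CPM without it (-2.47, SE 0.28, adjusted p = 4.89e-07). At 7 days they were 245, 179 and 140 CPM with extract, against 368, 497 and 600 CPM without it. On no day did the 2 groups overlap.

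Of the 2 members that rose with extract at 3 days, SMED30003645 had 165, 155 and 111 CPM with extract, against 42.4, 22.0 and 23.4 CPM without it (log2 fold change 2.29, SE 0.47, adjusted p = 0.00294). It is also a member that fell in flat plates by 7 days, and its level with extract at 3 days was above the 87.9, 96.1 and 93.2 CPM of uncultured cells. At 1 day its libraries overlapped between the 2 groups, with 57.7, 22.8 and 51.1 CPM with extract against 64.7, 67.7 and 33.5 CPM without it. The other was SMED30000103, with 388, 377 and 296 CPM with extract, against 109, 151 and 130 CPM without it (1.44, SE 0.24, adjusted p = 0.00023). At 7 days SMED30000103 had 81.7, 101 and 140 CPM with extract, against 147, 139 and 146 CPM without it, where the groups overlapped.

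Of the 6 members that rose with extract at 7 days, SMED30000702 and SMED30019959 had the highest fold changes. SMED30000702 had 2170, 3792 and 1729 CPM with extract, against 532, 443 and 456 CPM without it (log2 fold change 2.43, SE 0.56, adjusted p = 0.00503), and uncultured cells had 216, 139 and 146 CPM. SMED30019959 had 1623, 2719 and 1337 CPM with extract, against 320, 410 and 349 CPM without it (2.40, SE 0.46, adjusted p = 0.000668). In both, replicate 2 was the highest of the libraries with extract and replicate 3 the lowest. At 1 day the groups overlapped, and SMED30000702 had 157, 468 and 397 CPM with extract, against 427, 447 and 516 CPM without it.

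The members that fell most at 7 days became rare. SMED30020216 had 0, 10.8 and 13.4 CPM with extract, against 72.3, 83.4 and 98.7 CPM without it (log2 fold change -3.39, SE 0.61, adjusted p = 0.000343), a call lost in a fit of the 2 groups alone (adjusted p = 0.122). SMED30008676 had 16.1, 11.1 and 19.0 CPM with extract, against 60.7, 91.6 and 102 CPM without it (-2.45, SE 0.32, adjusted p = 6.4e-06). Uncultured cells had 100, 102 and 96.7 CPM of SMED30008676. The most abundant member, SMED30026979, had 818, 852 and 917 CPM at 7 days with extract, against 1915, 1726 and 1672 CPM without it, while at 3 days it had 2158, 2409 and 1926 CPM with extract against 1895, 1980 and 2197 CPM without it.

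**Figure D5:**
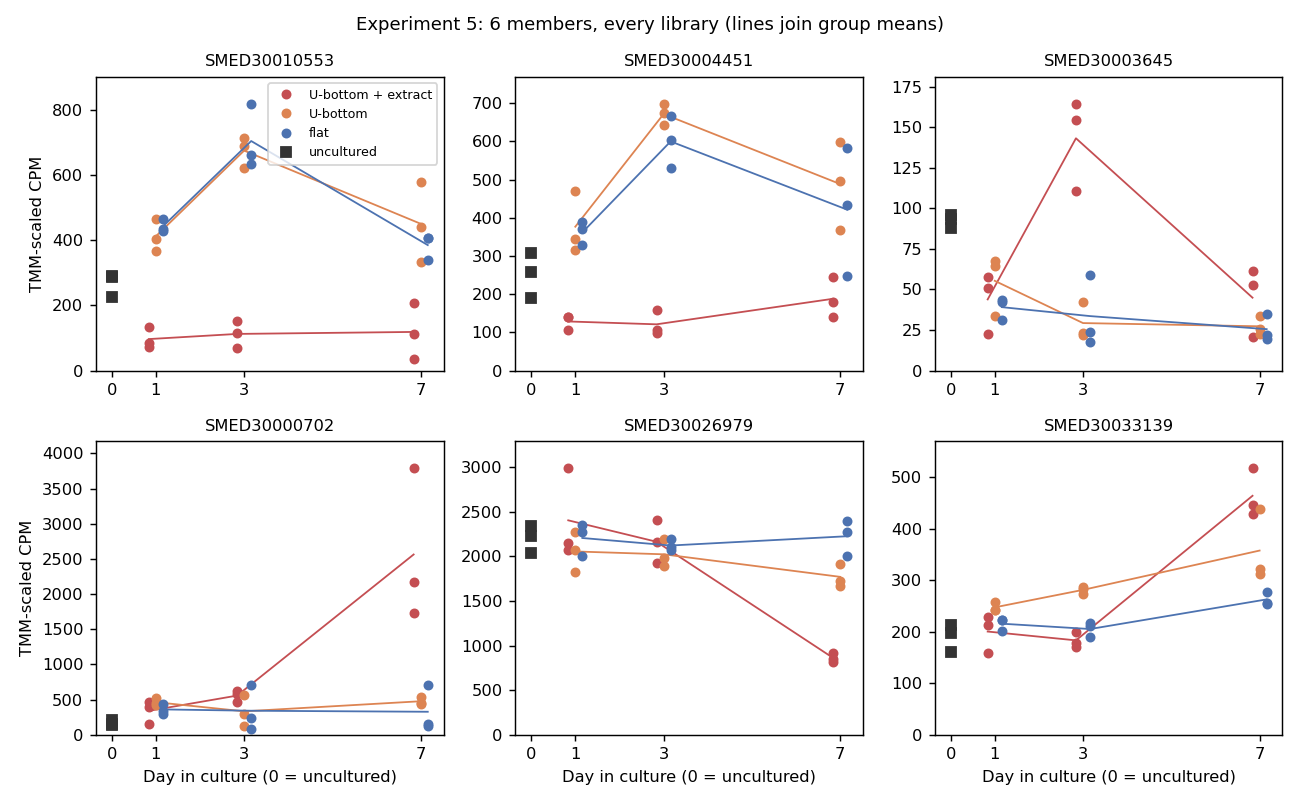
TMM-scaled CPM of 6 members in every library of experiment 5 against day in culture, lines joining group means, with uncultured cells at day 0. SMED30010553 and SMED30004451 are low with extract on every day, SMED30003645 is high with extract at 3 days, SMED30000702 at 7 days, and SMED30026979 is low with extract at 7 days. SMED30033139 is the member of smallest range on the plain scale.

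The change in the extract effect between days was itself tested, as the effect at 7 days minus that at 1 day. It was more positive for 5 of 199 members and more negative for 6 (5.53% called, against 1.83% of all identifiers and 9.70% of the equally abundant non-members). The split turned with the scaling, to 7 more positive and 0 more negative with RLE size factors and to 3 and 44 with plain totals, and 0 were called in a fit of the 4 groups alone. The count was 26 without replicate 3 of the plates with extract at 7 days, and between 4 and 7 without any 1 of 6 other libraries. These were replicates 1 and 2 with extract at 1 day, replicates 1 and 2 without it at 1 day, and replicates 2 and 3 without it at 7 days.

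In experiment 4 the members' direction in flat culture depended on how libraries were scaled. With TMM 29 of 199 members rose and 0 fell at 1 day against uncultured cells (14.6% called, against 22.4% of all 27388 identifiers and 14.65% of the equally abundant non-members), and 16 rose and 0 fell at 3 days (8.04%, against 22.3% and 10.8%). The members' median was 0.74 and 0.66, but the median of all identifiers was 1.06 and 0.99, so the members' median lay below that of the whole table. The median of the equally abundant non-members was 0.43 and 0.19, below that of the members. With plain totals the members' median was -0.25 and -0.04, against 0.19 and 0.38 over all identifiers. With the 4 most abundant identifiers kept it was 0.01 and -0.06, so no overall direction is given for these members. The count called was 15 at 1 day without replicate 1 of the flat plates and 9 at 3 days without replicate 3.

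SMED30011190 and SMED30024804 had the highest changes at 1 day and kept their call under every alternative tried. SMED30011190 had 2277, 1574 and 1546 CPM in flat plates at 1 day, against 277, 271 and 264 CPM in uncultured cells (log2 fold change 2.73, SE 0.45, adjusted p = 0.000256). SMED30024804 had 1359, 532 and 997 CPM, against 129, 211 and 161 CPM in uncultured cells (2.53, SE 0.56, adjusted p = 0.00361). In both, each flat library was above each uncultured one. SMED30024804 was also among the 9 members that fell with extract on all 3 days of experiment 5.

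No member passed the threshold on either feeder layer in experiment 4. On HFF1 against flat plates 0 of 199 members were called at 1 and 3 days, where 0% and 0.00365% of all identifiers were called, and on MEF 0 were called on either day, where 0% of all identifiers were called. Before adjustment 4 and 37 members had a p under 0.05 on HFF1 and 2 and 45 on MEF. Of all 27388 identifiers, 2682 and 1872 had one on HFF1 and 3903 and 2584 on MEF. DESeq2 called 2 and 2 on HFF1 and 0 and 3 on MEF. At 3 days the members' medians were -0.93 on HFF1 and -1.01 on MEF, with 180 and 187 of 199 below 0, and the medians of all identifiers were 0.16 and 0.11. The equally abundant non-members had medians of -0.82 and -1.07, close to those of the members. With RLE size factors the members' medians were -0.33 on HFF1 and -0.26 on MEF. The median standard error of a member was 0.76 on HFF1 and 0.77 on MEF, against 0.32 in the extract comparison at 7 days.

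The libraries on MEF at 3 days did not agree. The members' share of counts was 4.16% and 3.98% in replicates 1 and 2, which had the lowest totals of the experiment, and 6.31% in replicate 3. Without replicate 3, 71 members were called lower. Shares over other identifiers are not given for that fit, so this count does not set the members apart. The change between 3 days and 1 day of flat culture in experiment 4 had 0 calls among 199 members, with 0% of all identifiers called and 0 calls by DESeq2. Before adjustment 8 members had a p under 0.05, against 2218 of all 27388 identifiers. The members' median for this change was -0.11, against 0.10 over all identifiers.

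In experiment 1, cells in aggregates did not differ from cells outside them in any of the 200 members past the threshold, where 0% of all 18480 identifiers were called. No member had an unadjusted p under 0.05, against 306 of all 18480 identifiers, and DESeq2 also called 0. The median log2 fold change of the members was 0.15 and their median standard error was 0.53. Leaving out 1 library at a time moved this median between -0.23, without replicate 2 of the aggregates, and 0.43, without replicate 1 of them.

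On the soft gel against flat plates at 2 days in experiment 3, groups that the choice had not used, 1 of 200 members rose and 0 fell (0.5%, against 0.0585% of all 20528 identifiers and 0.417% of the equally abundant non-members). This member, SMED30031314, had 122, 206 and 210 CPM on the gel, against 50.4, 58.0 and 80.4 CPM on flat plates (log2 fold change 1.51, SE 0.27, adjusted p = 0.0184). The groups did not overlap, but the adjusted p lay between 0.1 and 0.258 without any 1 of 5 libraries, which were replicates 2 and 3 on the gel and all 3 on flat plates. The median of the members was 0.10, and 187 of 200 had a fitted change under 0.5 in size (93.5%, against 62.8% of all identifiers and 83.5% of the equally abundant non-members).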

How the data were processed

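RNA of 89 libraries was measured by template-switching reverse transcription, PCR and Tn5 tagmentation, per the labels' protocols, with no molecular identifiers mentioned, so counting errors do not cover amplification. The authors deposited 1 table per experiment: estimated counts in experiments 1 to 3 and whole counts in experiments 4 and 5, without normalization as far as the values show. The submitters' processing notes name kallisto 0.46.2 and R 4.0.5 with no role, while transcriptome and filters are both not given in the sources used here.

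Estimated counts were rounded. After leaving out the 4 most abundant identifiers, edgeR 4.0.16 (R 4.3.3) was run in each table with its default expression filter, TMM and 1 mean per group over all groups. The quasi-likelihood F test was two-sided, with Benjamini-Hochberg adjusted p under 0.05, dispersions from estimateDisp and the legacy fit. Call counts of this and of the newer fit without estimateDisp had both been seen before it was settled, and the newer fit is an alternative. Each SE is the size of the log2 fold change over the root of its F value. Plain CPM uses library totals, and TMM-scaled CPM uses effective ones. DESeq2 1.42.0 was an alternative. The script was tested on simulated data.

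Members and lists were chosen with earlier results of these data known. Named identifiers are the 5 most abundant members and the last, per comparison up to 2 called members of highest and 2 of lowest fold change with no overlap, 3 of smallest and 3 of largest range, and those nearest the limits, of which the text gives a part. Replicate numbers were not treated as pairs in the main fit: in no comparison did every same-numbered pair correlate above 0.1. That limit cannot exclude pairing.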

Additional observations from a re-analysis of the deposited data

Results flagged for a closer look

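The effect of extract on 4 named members differed between days by the test of the difference itself (edgeR's quasi-likelihood F test, Benjamini-Hochberg adjusted). For SMED30000702 the extract effect at 7 days exceeded that at 1 day by 2.87 on the log2 scale (SE 0.77, adjusted p = 0.0428), with fold changes of 2.43 at 7 days and -0.44 at 1 day. For SMED30004214 the difference was 2.73 (SE 0.54, adjusted p = 0.00459), with 1.78 at 7 days and -0.95 at 1 day, and its 7-day libraries had 1039, 1213 and 882 CPM with extract against 147, 376 and 388 CPM without it. For SMED30004963 the difference was -2.04 (SE 0.42, adjusted p = 0.00615), with -1.71 at 7 days and 0.33 at 1 day. For SMED30008676 it was -1.85 (SE 0.44, adjusted p = 0.0189), with -2.45 at 7 days and -0.60 at 1 day. A fit of the 4 groups alone kept none of these 4 calls, with adjusted p between 0.0524 and 0.109. With RLE size factors the calls of SMED30004963 (adjusted p = 0.112) and SMED30008676 (adjusted p = 0.177) were lost. The newer edgeR fit also lost the call of SMED30008676 (adjusted p = 0.0677). The call of SMED30000702 was lost with plain totals (adjusted p = 0.0585) and without any 1 of 9 libraries (0.0533 to 0.11), and that of SMED30008676 without any 1 of 7 (0.0548 to 0.0806).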

How the results depend on the processing

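Counts in this paragraph are members called higher or lower together, and where a count moved the cause was not tested. For the settings in this section shares over other identifiers are not given, so the counts do not set the members apart. With RLE size factors the count in experiment 5 was 7 for flat plates against uncultured cells at 3 days, 27 for extract at 7 days and 7 for the change in the extract effect, and the median of flat plates at 7 days against 1 day turned to 0.0783. With plain totals the counts were 3 on the gel, 15 for flat plates against uncultured cells at 1 day in experiment 4, 147 for extract at 7 days and 47 for the change in its effect, and the experiment 4 medians turned to -0.25 at 1 day and -0.0400 at 3 days. Keeping the 4 most abundant identifiers gave 11 and 9 calls in those experiment 4 comparisons and a median of -0.0566 at 3 days. Without a filter on low counts there were 5 calls on the gel and 2 for flat plates at 1 day in experiment 5.

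DESeq2 called 4 on the gel, 2 and 2 on HFF1 at 1 and 3 days and 3 on MEF at 3 days. In experiment 5 it called 1, 20 and 32 for flat plates against uncultured cells at 1, 3 and 7 days, 24 for flat plates at 7 days against 1 day (median 0.0772), 38 and 47 for extract at 1 and 7 days and 18 for the change in its effect. Fitting only the compared groups gave 3 on the gel, 17 in experiment 4 at 1 day, 19, 27 and 42 for flat plates against uncultured cells in experiment 5, 26 for 7 days against 1 day (median 0.0363), 12 for extract at 7 days and 0 for the change. The newer edgeR fit, added after seeing the data, gave 1, 22 and 28 for flat plates against uncultured cells, 21 for 7 days against 1 day and 29 for extract at 1 day. Ranking members on experiment 3 alone, or keeping those above 0 in every library of experiments 4 and 5, left all 20 counts within 1.5 times.

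Without any 1 library, the counts ran from 0 to 1 on the gel, 15 to 28 and 9 to 22 for flat plates at 1 and 3 days in experiment 4, and 0 to 71 on MEF at 3 days. In experiment 5 they ran from 0 to 1, 3 to 12 and 10 to 15 for flat plates against uncultured cells, 4 to 10 for 7 days against 1 day, 7 to 10, 31 to 39 and 49 to 77 for extract at 1, 3 and 7 days, and 4 to 26 for the change in its effect. The remaining comparisons stayed at 0.

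With the replicate number as a block the extract counts were 17, 56 and 77 at 1, 3 and 7 days, flat plates in experiment 4 gave 28 and 15, flat plates in experiment 5 gave 0, 12 and 17, and every comparison stayed within 1.5 times of the fit with no block. Same-numbered libraries correlated between -0.126 and 0.628 over the 19 comparisons, and every tested library correlated best with its own number in 1 of them (flat plates at 3 days in experiment 5), as a hint from the data only. Group sizes of 2 and 3, and the spread in experiment 4, limit what could be called. A call missed there does not show that a member was steady.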
